A study of Homo sapiens with 2 samples.

Results

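The peaks described here lie in 8 hg19 windows around 7 genes of the NOTCH pathway and its targets in T cell leukaemia: the receptors NOTCH1 and NOTCH3, the pathway targets HES1, DTX1 and NRARP, and the growth and survival genes MYC and IL7R. MYC has 1 window at the gene and 1 at its distal NOTCH enhancer. Peaks with 1 or more bases inside a window were taken, which gave 20 of the 17396 UTX peaks and 2 of the 2678 TAL1 peaks. The windows cover 670 kb in all. Peaks were taken by position alone, whatever their size or overlap with the other list. The genes and windows were chosen with earlier results of these data known.

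The UTX list comes from 1 chromatin immunoprecipitation (ChIP-seq) library of untreated Jurkat cells, a human cell line derived from a T cell acute lymphoblastic leukaemia (T-ALL), precipitated with a mixture of a home-made antibody (9838P) and a commercial one (A302-374A) against UTX. Its counterpart, 1 mock library of the same line with an isotype IgG, was not analysed here. The TAL1 list was taken by the submitters from an earlier study, and no source used here names the cells behind it. UTX (KDM6A) is a histone demethylase that removes the repressive mark from H3K27, and TAL1 is a basic helix-loop-helix factor that is switched on aberrantly in a subset of T-ALL. Both lists give positions only, so the read depth and the strength of a peak are unknown, and width is the one measure of its size. There are no replicates. No test was made between the windows and the rest of the lists, so the shares of the whole lists stand beside the counts as a description, and intervals are 95% exact binomial intervals that cover the counting of peaks only.

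NOTCH receptors are cut after they bind ligand on a neighbouring cell, and the freed intracellular domain enters the nucleus, where it joins the DNA-binding protein RBPJ and coactivators of the MAML family to switch on target genes. The pathway is required for commitment of progenitors to the T lineage, and activating NOTCH1 mutations are frequent in T-ALL. HES1 encodes a basic helix-loop-helix repressor, DTX1 a ubiquitin ligase of the Deltex family, and NRARP an ankyrin-repeat protein that dampens NOTCH signalling. MYC, a transcription factor that drives cell growth, and IL7R, which encodes the alpha chain of the interleukin 7 receptor, are also activated by NOTCH1 in T-ALL, MYC through an enhancer far downstream of the gene.

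RefSeq promoters, read from GRCh38.p14, were at hand for 5 of the 7 genes and show how the promoters of these loci differ in sequence. They could not be placed against the hg19 peaks. Those of HES1 and IL7R, with 4 and 5 UTX peaks in their windows, are shown because they are the 2 of the 5 that held a match to a motif marked below, a choice made after the search. That of NRARP is shown because its window held 0 UTX peaks. The NOTCH1 window also held 4 UTX peaks, and its promoter, with 0 matches, is not shown. Each run gives the 250 bases before the start of the gene, 5′ to 3′ on the strand of the gene, for HES1 chr3:194135898-194136147 (plus strand), for IL7R chr5:35856641-35856890 (plus strand) and for NRARP chr9:137302272-137302521 (minus strand). Capitals mark matches, on either strand, to the RBPJ core TGGGAA. They also mark the GATA factor motif, spelled AGATAA in the search. The RUNX motif, searched as TGTGGT, is marked likewise. An E-box that TAL1 binds with its partners, CAGATG, was searched too.
HES1: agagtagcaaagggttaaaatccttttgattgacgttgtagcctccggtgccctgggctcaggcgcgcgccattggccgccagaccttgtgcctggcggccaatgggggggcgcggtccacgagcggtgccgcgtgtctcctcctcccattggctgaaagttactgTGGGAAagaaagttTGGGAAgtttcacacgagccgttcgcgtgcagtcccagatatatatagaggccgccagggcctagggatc
IL7R: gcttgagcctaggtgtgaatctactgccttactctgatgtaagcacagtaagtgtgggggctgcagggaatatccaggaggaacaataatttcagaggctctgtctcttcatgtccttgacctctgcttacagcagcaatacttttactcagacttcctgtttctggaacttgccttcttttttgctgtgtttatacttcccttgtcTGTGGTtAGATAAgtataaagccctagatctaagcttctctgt
NRARP: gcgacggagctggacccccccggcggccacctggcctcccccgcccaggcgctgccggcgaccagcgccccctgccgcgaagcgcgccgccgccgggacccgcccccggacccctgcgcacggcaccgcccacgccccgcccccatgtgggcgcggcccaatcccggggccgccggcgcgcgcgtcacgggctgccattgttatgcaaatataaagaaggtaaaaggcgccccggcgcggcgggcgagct

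The HES1 promoter held TGGGAA at 2 positions, beginning 84 and 70 bases before the start. Of 35114 promoters of this length, 20.8% held TGGGAA and 2.90% held it at 2 or more positions. The IL7R promoter held TGTGGT beginning 43 bases and AGATAA beginning 36 bases before the start, motifs found in 11.0% and 9.17% of all promoters. No capitalised match overlapped another. None of these 4 motifs was in the 250 bases of the NRARP, NOTCH1 or NOTCH3 promoters, and CAGATG, held by 12.2% of all promoters, was in none of the 5. The general E-box CANNTG was at 2 positions in NRARP and at 0 in the other 4, against 61.8% of all promoters with at least 1. A match describes these letters and is not a site of binding.

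The promoters also differed in composition. The IL7R promoter had 43.6% G and C and 0 CpG dinucleotides, and the HES1 promoter 59.2% and 18. The promoters of NOTCH1, NOTCH3 and NRARP had 76.0%, 78.0% and 78.4% G and C, with 33, 28 and 39 CpG dinucleotides. Over all promoters the medians were 58.0% and 11 CpG dinucleotides, with CpG quartiles of 3 and 23. UTX peaks were thus called in the windows of genes with promoters both above and below the median CpG count. The CpG-richest promoter of the 5, NRARP, belonged to the window without a UTX peak, but 81.0% of tiles of 50 kb likewise held none. A link between CpG count and UTX was not tested.

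UTX was called in 7 of the 8 windows and TAL1 in 2 of them. By window, the number of UTX peaks was 4 at NOTCH1, 2 at NOTCH3, 4 at HES1, 2 at DTX1, 0 at NRARP, 1 at MYC, 2 at the MYC distal enhancer and 5 at IL7R. Over all windows the UTX density was 2.99 peaks per 100 kb, against 0.588 per 100 kb between the first and last UTX peaks of the 24 chromosomes, and the TAL1 density was 0.299 against 0.0905 per 100 kb over the same span. Windows around genes chosen for their role in T-ALL are not a sample of that span, which includes assembly gaps and stretches without genes.

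**Figure D1:**
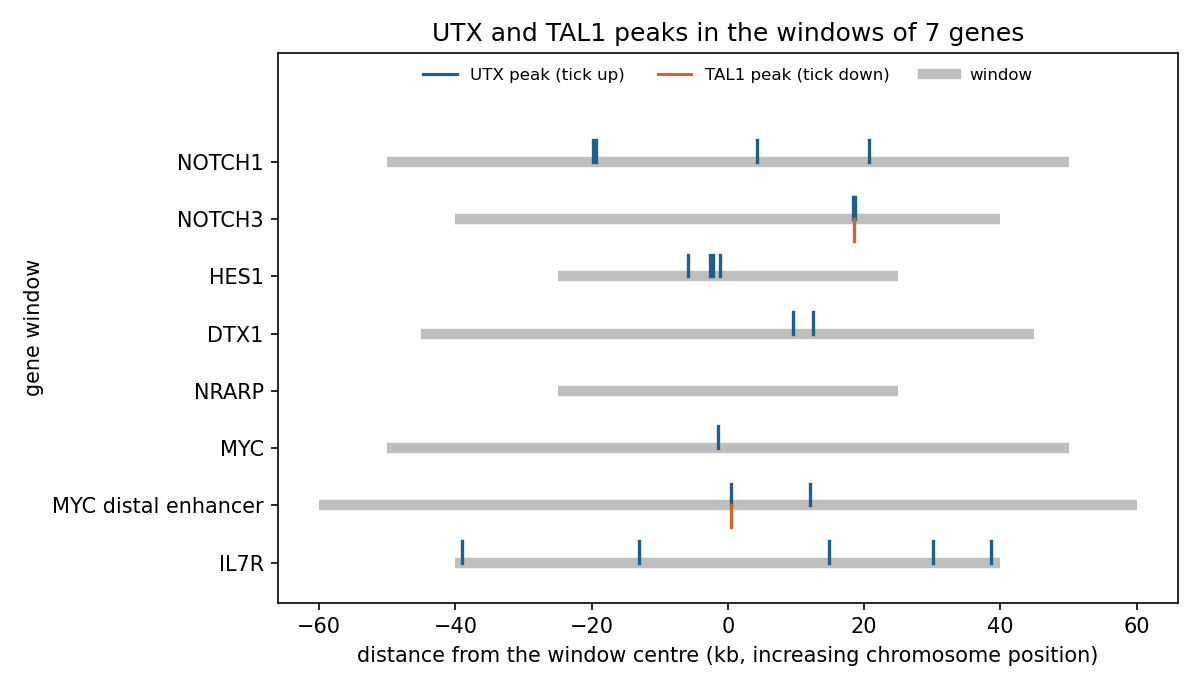
Positions of the UTX peaks (blue ticks, upward) and TAL1 peaks (orange ticks, downward) in the 8 windows (grey bars), as distance from the window centre in kb in the direction of increasing chromosome position; ticks stand at peak centres and are wider than the peaks. The 4 HES1 ticks lie close together, the 5 IL7R ticks are spread along the window, and NRARP has none. The 2 TAL1 ticks stand under UTX ticks in the NOTCH3 and MYC distal enhancer windows.

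Of the 20 UTX peaks, 3 held TAL1 (15.0%, interval 3.21 to 37.9%), and 12.1% of the whole UTX list did. The share in the windows is thus near that of the list. Those 3 lay at only 2 TAL1 peaks, since the NOTCH3 pair touched the same one. The interval counts them as independent, so it understates the uncertainty. Both TAL1 peaks of the windows lay in UTX (2 of 2, interval 15.8 to 100%), against 80.8% of the whole TAL1 list. With the wider 50% of the UTX peaks only, 1 of the 2 did. The 17 UTX peaks without TAL1 included every UTX peak of NOTCH1, HES1, DTX1, IL7R and the MYC gene window.

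The receptor genes differed in their distance to TAL1, which was called within the UTX peaks of NOTCH3 and far from those of NOTCH1. In the NOTCH3 window, from 15250000 to 15330000 on chromosome 19, the UTX peaks lay at 15308279 to 15308499 (221 bases) and at 15308559 to 15308778 (220 bases). They were the narrowest of the 20, and 59 bases separated them. Of tiles of 80 kb laid end to end along the chromosomes, 10.9% held 2 or more UTX peaks. A single TAL1 peak of 414 bases, at 15308338 to 15308751, bridged that gap and shared 162 bases with the first UTX peak and 193 with the second. Of the 2163 TAL1 peaks in UTX, this was the only one that touched more than 1 UTX peak (0.0462% of them).

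The NOTCH3 site paired a wide TAL1 peak with narrow UTX peaks. For the TAL1 peak, 19 of the 2678 TAL1 peaks, or 0.709%, were at least as wide, and the median TAL1 width was 147.5 bases. For the UTX peaks under it, 214 of the 2100 UTX peaks with TAL1 (10.2%) were no wider than 221 bases and their median was 405 bases. In the whole UTX list, 78.0% of peaks were at least 221 bases wide. The gap of 59 bases is near the smallest in the UTX list, which was 51 bases, and 47 of 17372 gaps between neighbouring UTX peaks (0.271%) were no larger. NOTCH3 thus supplied 2 of the 58 UTX peaks with TAL1 on chromosome 19, where 6.61% of 878 UTX peaks held TAL1. The TAL1 peak next to this one lay 95.4 kb away.

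**Figure D2:**
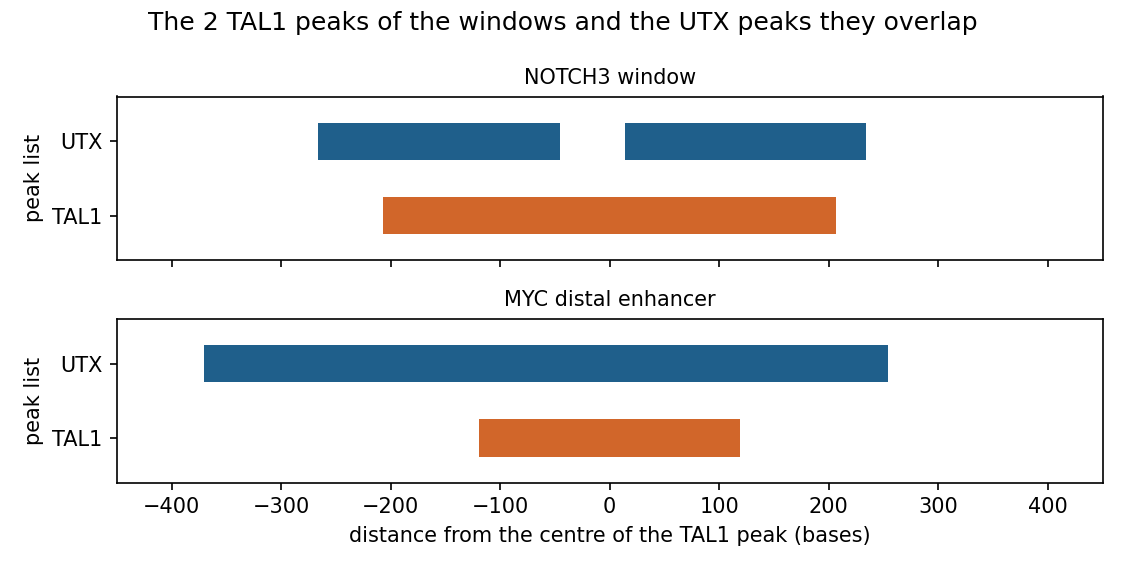
The 2 TAL1 peaks of the windows (orange) and the UTX peaks that overlap them (blue), drawn to scale as distance in bases from the centre of the TAL1 peak. In the NOTCH3 window (top) the TAL1 peak spans the gap of 59 bases between the UTX peaks. In the MYC distal enhancer window (bottom) the TAL1 peak lies wholly inside the UTX peak.

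The NOTCH1 window, from 139370000 to 139470000 on chromosome 9, held 4 UTX peaks and no TAL1 peak. A close pair lay at 139399981 to 139400360 (380 bases) and 139400552 to 139400855 (304 bases), with 191 bases between them. The other UTX peaks lay 23.3 kb further along, at 139424113 to 139424567 (455 bases), and at 139440628 to 139440897 (270 bases), 16.1 kb beyond that. Of tiles of 100 kb, 3.48% held 4 or more UTX peaks.

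The nearest TAL1 peak to NOTCH1, at 136734842 to 136735021, was between 2665 and 2706 kb from the 4 NOTCH1 peaks. Only 416 UTX peaks of the whole list (2.39%), these included, were as far from TAL1 as the closest of them. That TAL1 peak, which lay in a UTX peak of 376 bases, was the last of the 75 on chromosome 9. The 3.97 Mb from it to the last UTX peak of the chromosome held 46 UTX peaks, so the windows of NOTCH1 and NRARP share 1 stretch without a called TAL1 site. Among the 2144 stretches between TAL1 peaks, or beyond the outermost one, that held UTX peaks, 11 held 46 or more, this one included.

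HES1 had the largest group of neighbouring UTX peaks. Its window, from 193830000 to 193880000 on chromosome 3, held 4 UTX peaks within 5.22 kb: at 193848945 to 193849357 (413 bases), 193852231 to 193852488 (258 bases), 193852637 to 193853022 (386 bases) and 193853640 to 193854167 (528 bases). The gaps between them were 2.87 kb, 148 bases and 617 bases. Of tiles of 50 kb, 0.980% held 4 or more UTX peaks.

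Around HES1 there was no other UTX peak for 519 kb below the window and 93.1 kb above it. Joined across gaps of up to 10 kb, the HES1 peaks formed 1 group of 4, the one such group in the windows, and groups of 4 or more made up 2.42% of the 13105 groups of the list. None of the HES1 peaks held TAL1. The nearest TAL1 peak, at 194023436 to 194023618, was 169 to 174 kb from them and lay in a UTX peak of 210 bases.

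DTX1 had the widest UTX peak of the windows. In its window, from 113470000 to 113560000 on chromosome 12, UTX was called at 113524035 to 113524956 (922 bases) and at 113527252 to 113527755 (504 bases), 2.29 kb apart. A width of 922 bases or more was reached by 488 UTX peaks, or 2.8% of the list, and 504 bases or more by 19.4%. Tiles of 90 kb with 2 or more UTX peaks made up 12.5% of such tiles. The nearest TAL1 peak, at 113716570 to 113716803, was 189 and 192 kb away and lay in a UTX peak of 395 bases.

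NRARP was the one window with 0 peaks in both lists. No UTX and no TAL1 peak lay between 140170000 and 140220000 on chromosome 9, and 81.0% of tiles of 50 kb likewise held no UTX peak. The nearest UTX peak ended 3.88 kb below the window, at 140165827 to 140166116 (290 bases), and the next above it began 125 kb away. In the RefSeq gene order of GRCh38.p14, NRARP lies between TOR4A and EXD3, and the UTX peak below the window was not assigned to a gene. The nearest TAL1 peak was 3435 kb from the window.

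For MYC, UTX was called in the gene window and in the enhancer window, and TAL1 in the enhancer window alone. The gene window, from 128700000 to 128800000 on chromosome 8, held 1 UTX peak of 287 bases at 128748419 to 128748705. It stood isolated, with no other UTX peak for 224 kb, and 30.4% of tiles of 100 kb held at least 1 UTX peak. Its nearest TAL1 peak, at 128972727 to 128972910, lay beyond the window in that next UTX peak, which measured 240 bases.

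The enhancer window, from 130120000 to 130240000, held UTX peaks of 624 bases at 130180119 to 130180742 and of 399 bases at 130191833 to 130192231, 11.1 kb apart. The wider one contained the whole TAL1 peak of 238 bases at 130180370 to 130180607, which took 38.1% of its width, and the centres were 58 bases apart. At least as wide as this UTX peak were 10.6% of the whole UTX list and 403 of the 2100 UTX peaks with TAL1 (19.2%), and 10.5% of the TAL1 list was at least as wide as the TAL1 peak. The second UTX peak held no TAL1, and its nearest TAL1 peak, 11.2 kb away, was the one in the first. Tiles of 120 kb with 2 or more UTX peaks made up 16.8% of such tiles, and the next TAL1 peak was 210 kb away.

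The IL7R window had the highest number of UTX peaks, and they were spread out. The windows differ in length, and the density was higher at HES1, with 8.00 peaks per 100 kb against 6.25 at IL7R. The window, from 35830000 to 35910000 on chromosome 5, held 5 UTX peaks over 78.2 kb, at 35830681 to 35831155 (475 bases), 35856709 to 35857104 (396 bases), 35884639 to 35884998 (360 bases), 35899899 to 35900319 (421 bases) and 35908322 to 35908832 (511 bases). All 5 were wider than the list median of 320 bases. The gaps between neighbours ran from 8.00 to 27.5 kb, and joining across 10 kb left 4 groups, whereas the 4 HES1 peaks made 1 group. Of tiles of 80 kb, 1.12% held 5 or more UTX peaks.

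The outermost IL7R peaks lay close to the window edges, and the next UTX peaks outside were 12.7 kb below and 44.2 kb above the window. Windows trimmed by 10 kb lose both outermost peaks and then hold fewer UTX peaks at IL7R than at HES1 or NOTCH1. In the RefSeq gene order, IL7R lies between SPEF2 and CAPSL, and none of the 5 peaks was assigned to a gene. The nearest TAL1 peak, at 35974691 to 35974779, was 65.9 to 144 kb from the 5 peaks. It was 89 bases wide and did not lie in a UTX peak, whereas 80.8% of the whole TAL1 list did. The nearest TAL1 peaks of the other 7 windows lay in UTX peaks, with the same TAL1 peak nearest to NOTCH1 and NRARP.

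Widths in the windows ran from 220 to 922 bases with a median of 397.5 (quartiles 300 and 482, n = 20), against a median of 320 (quartiles 230 and 457) in the whole list. The order-statistic 95% interval of the median in the windows was 304 to 475 bases. It treats peaks as independent, which peaks of the same window are not, and no test was made with it. Of the 20 peaks, 14 were wider than the list median (49.8% of the list), 6 were above its upper quartile (24.9%) and 2, both at NOTCH3, were below its lower quartile (24.8%). The 3 UTX peaks with TAL1 were thus the narrowest pair and the second widest peak of the windows.

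**Figure D3:**
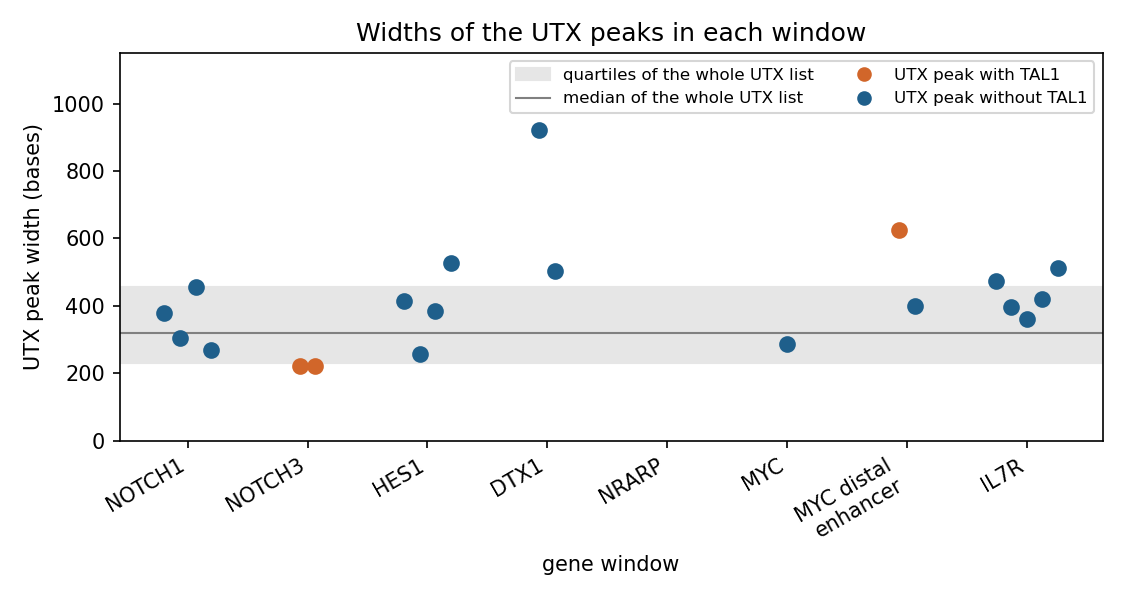
Width in bases of each UTX peak by window, in order of position within a window, coloured by whether it held a TAL1 peak; the grey band and line give the quartiles and the median of the whole UTX list. The NOTCH3 peaks lie just below the band, all 5 IL7R peaks lie above the line, and the first DTX1 peak, at 922 bases, is the widest.

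Neighbouring UTX peaks were common in the windows: 12 of the 20 had another UTX peak within 10 kb, against 40.9% of the list, and the median distance to the next UTX peak was 5.44 kb against 16.6 kb. Peaks of 1 window are not independent of each other in this count. Over all 20 peaks, nearness to TAL1 was close to that of the list. More than 100 kb separated 13 of the 20 from the nearest TAL1 peak, against 58.6% of the list, and the median distance was 170 kb against 162 kb. Among the 17 without TAL1, the median distance was 171 kb, against 218 kb for the peaks without TAL1 in the list. Distances of the 17 ran from 11.2 kb in the MYC distal enhancer window to 2706 kb at NOTCH1.

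**Figure D4:**
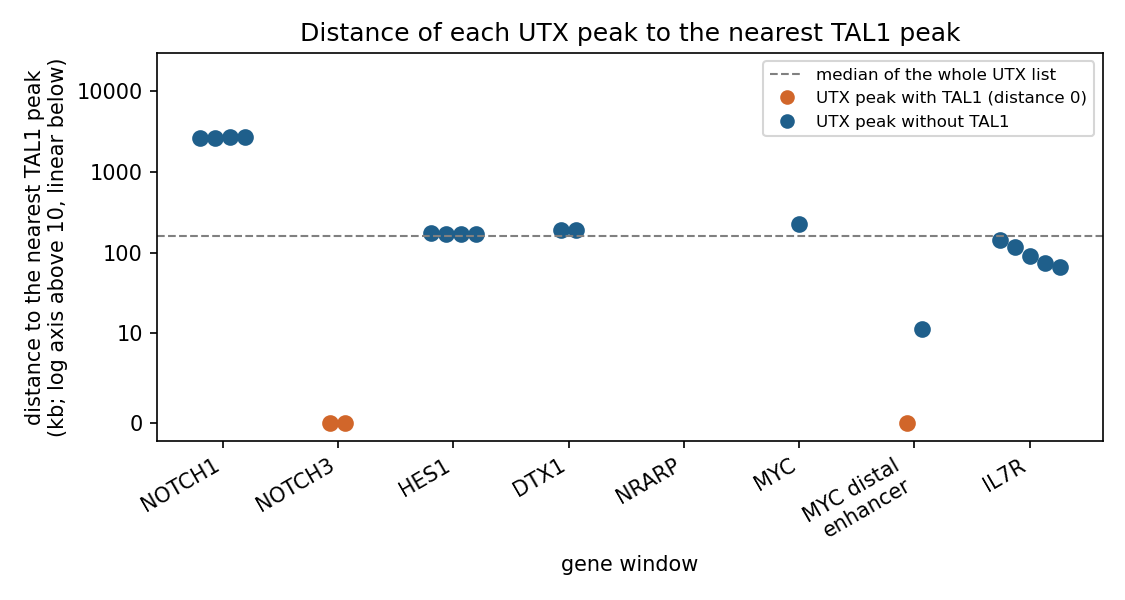
Distance in kb from each UTX peak to the nearest TAL1 peak by window, on an axis that is logarithmic above 10 kb and linear below; orange points hold a TAL1 peak and the dashed line is the median of the whole UTX list, 162 kb. The NOTCH1 peaks lie 2665 to 2706 kb away. Those of HES1, DTX1 and the MYC gene window lie above the line, at 169 to 224 kb, and those of IL7R below it, at 65.9 to 144 kb.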

How the data were processed

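As deposited by the authors, each list has 3 columns, the chromosome, start (counted from 0) and end of a peak, with no score, summit or read count. Per the submitters' processing notes, BWA 0.6.2, SAMtools 0.1.18 and MACS2 2.0.10 were used with hg19. No source used here gives their order and settings, the use of the mock library, or how TAL1 sites were called. The TAL1 list was taken to be on hg19 like the UTX list. Positions are printed counted from 1. Depth is unknown.

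Peaks were assigned to windows, and lists intersected at a minimum of 1 base, in Python 3.11.15 with numpy 2.4.6 and scipy 1.17.1; the code was tested on simulated intervals, and the overlap counts of the whole lists equalled those of bedtools 2.31.1. Tiles of each window's width ran from the first UTX peak of each chromosome, assembly gaps included. Every member gene was named and every peak of the windows was given. The genes, windows and lists were chosen with earlier results of these data known. Since there is 1 library per group, no comparison was tested. An hg19 annotation or sequence was not used, so no peak was assigned to a promoter, exon or intron, peak sequences were not searched, and the list of other pathway genes was not examined. Motifs were searched in RefSeq promoters of GRCh38.p14, whose positions were not set against the peaks.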

Additional observations from a re-analysis of the deposited data

How the results depend on the processing

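Of 74 values recomputed under other settings, 72 stayed within their limits: 1.5 times the reported value for counts and densities, and the 95% interval for shares and the median width. The exceptions were the number of TAL1 peaks in the windows, 2, which became 1 without the NOTCH3 window and 1 without the MYC distal enhancer window, since each holds 1 of them. The limits for shares are wide with so few peaks: 5.56% against 15.0% and 50% against 100% lay within them. Leaving out the NRARP window, which holds no peak, could change only the density. The tally of 72 therefore does not measure how stable the results are. The 15.0% of UTX peaks with TAL1 was unchanged when sharing needed 50% of the shorter peak, centres within 500 bases, a distance of up to 1 kb or overlap of 200 bases around each centre. It was 5.56% (1 of 18) without NOTCH3, 11.1% (2 of 18) without the enhancer and 7.14% (1 of 14) when the narrower 50% of the UTX list, both NOTCH3 peaks among it, was dropped. That last setting left 1 of the 2 TAL1 peaks in UTX (50%, against 100% with all UTX peaks). UTX peaks numbered 29 with windows extended by 25 kb and 18 with windows trimmed by 10 kb, which removed the outermost IL7R peaks. No paired analysis was possible because the UTX and mock groups hold 1 library each and share no second replicate. With no scores or counts, a peak missed at low depth cannot be told apart from an unoccupied site, which bears on NRARP and on the UTX peaks without TAL1.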
